A study of Mus musculus with 6 samples.

Results

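The genes described are Creld2, Manf, Sdf2l1, Dnajc3 and Selenok, 5 protein-coding genes of the endoplasmic reticulum (ER) stress response among the 680 genes of the deposited table. They were found by looking up Ensembl gene identifiers in GENCODE M21, and all 5 were present. RNA was sequenced from MC3T3, a mouse pre-osteoblast cell line that the labels describe as stem cells of bone, in 3 libraries of untreated cells (control) and 3 libraries of cells kept for 48 hours with exosomes, small membrane vesicles, released by HUVEC, primary human endothelial cells from the umbilical vein. The controls received nothing, so an effect of HUVEC exosomes and one of adding any vesicle preparation cannot be told apart, and the exosome dose is not given in the sources used here. The titles number the libraries as biological repeats without saying that they were separate cultures, so p-values measure only the spread between these libraries.

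When unfolded proteins gather in the ER, the membrane sensors PERK, IRE1 and ATF6 start the unfolded protein response. PERK slows protein synthesis and raises the transcription factor ATF4, while IRE1 and ATF6 lead to the transcription factors XBP1 and cleaved ATF6, which raise genes for folding, secretion and degradation of ER proteins. Osteoblasts secrete large amounts of collagen matrix and rely on this machinery. The series title names a PERK-ATF4-CRELD2 pathway, and the comparison asked how the RNA of such genes differed between untreated and exosome-treated cells.

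The values were FPKM, by its definition a fragment count scaled to exon length and to the size of the library. The name of the deposited table says that it holds genes the authors had called changed, so every member had been selected on these same libraries and all adjusted p-values below are too small as measures of significance. Library depth, recovered from the steps of the values, was 39630444 to 48369052 reads in the control and 51315986 to 54429032 in the exosome libraries, so each exosome library was deeper than each control library. FPKM divides by depth, and any remaining part of depth in the differences was not tested. Of 12 osteoblast marker genes, Dmp1, a bone matrix phosphoprotein, was analysed. It was present in all libraries, at 563, 525 and 454 FPKM in the controls and 258, 211 and 204 FPKM with exosomes, so it fell (log2 difference −1.19 ± 0.12, SE, n = 3 per group; limma adjusted p = 0.00512) where the 5 genes rose. None of 8 endothelial markers was among the genes analysed here. In such bulk RNA, fewer cells of a type and less RNA per cell cannot be told apart.

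Creld2 encodes a cysteine-rich protein with EGF-like domains that resides in the ER, is partly secreted and is induced by ER stress. It lies on chromosome 15 from 88819646 to 88826683 on the plus strand (GRCm38), with 10 exons. Manf encodes a small protein that binds the ER chaperone BiP and is secreted under ER stress; it spans 106838312 to 106891979 of chromosome 9 on the minus strand. Sdf2l1 encodes an ER lumen protein found in complexes with BiP and its J-domain partner ERdj3, and lies on chromosome 16 from 17130138 to 17132383 on the minus strand, with 3 exons. Dnajc3 encodes p58IPK, a J-domain co-chaperone of BiP in the ER lumen that is also known as an inhibitor of PERK, and lies on chromosome 14 from 118937976 to 118981697 on the plus strand, with 12 exons. Selenok encodes a selenoprotein of the ER membrane that takes part in ER-associated degradation, the removal of misfolded proteins. It lies on the same chromosome and strand from 29968308 to 29975662.

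Promoter stretches are shown because the 5 genes rose together with exosomes and varied together among the control libraries, and ER stress genes are known for a promoter element, the ER stress response element (ERSE). ATF6 binds the CCACG part of this element beside the factor NF-Y on CCAAT. Sequences were available here for Creld2, Sdf2l1, Dnajc3 and Selenok (RefSeq, GRCm38.p6). Each line gives 100 bases in the direction of the gene, from 160 to 61 bases before its RefSeq start. This start is not always that of the gene span given above. The Dnajc3 start was not found in its GENCODE transcript, and the Selenok stretch ends inside the Selenok span. Capitals mark an exact ERSE on either strand.
Creld2, chr15:88819486-88819585, plus strand: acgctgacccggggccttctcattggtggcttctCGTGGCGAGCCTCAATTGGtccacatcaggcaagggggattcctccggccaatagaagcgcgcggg
Sdf2l1, chr16:17132444-17132543, minus strand: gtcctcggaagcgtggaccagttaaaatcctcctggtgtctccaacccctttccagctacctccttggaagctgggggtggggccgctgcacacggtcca
Dnajc3, chr14:118937772-118937871, plus strand: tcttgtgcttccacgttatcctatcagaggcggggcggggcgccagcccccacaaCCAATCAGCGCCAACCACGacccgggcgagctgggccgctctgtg
Selenok, chr14:29968220-29968319, plus strand: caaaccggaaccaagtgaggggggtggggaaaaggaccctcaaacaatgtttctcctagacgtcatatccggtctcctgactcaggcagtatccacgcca

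The ERSE, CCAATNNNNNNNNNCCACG, was searched on both strands over 300 bases, from 250 before to 50 after the RefSeq start. An exact match was in the Creld2 window, on the strand opposite to the gene from 126 to 108 bases before the start, and in the Dnajc3 window, on the strand of the gene from 105 to 87 bases before it. Of all 32851 windows in the reference table, 39 held an exact match (0.119%). Among 294 genes of the deposited table with a window, the match was in Creld2, Dnajc3 and the predicted gene Gm6566. The Selenok window held the element with 1 letter different, at its RefSeq start. Of all windows, 1.50% held the element with at most 1 letter different. The Sdf2l1 window held no such match. CCAAT boxes, the NF-Y part, were in all 4 windows. Counted on either strand there were 4 for Sdf2l1, 3 for Creld2, 2 for Dnajc3 and 1 for Selenok. Their share over all windows was not counted. The related element ERSE-II, ATTGGNCCACG, was exact in none of the 4 windows and in 12 of all windows (0.0365%). With 1 letter different it was in the Creld2 window from 112 to 102 bases before the start, where it overlaps the ATTGG of the ERSE, and in the Sdf2l1 window from 149 to 139 bases before it, against 1.16% of all windows with at most 1 letter different. The XBP1 element TGACGTGG and the C/EBP-ATF element TGATGNAAT, which binds ATF4 with a C/EBP partner, were exact in none of the 4 windows, against 0.676% and 0.965% of all windows. With 1 letter different the XBP1 element was in all 4 windows, against 16.2% of all windows with at most 1 letter different, and the C/EBP-ATF element in none, against 18.2%. A match of letters is a description of these windows and no evidence of binding.

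Selenok carries the mark of its class in its coding sequence, an in-frame TGA that is read as selenocysteine. The GENCODE annotation places this codon at chr14:29973440-29973442 on the plus strand. It is shown in capitals within 18 bases of the Selenok coding sequence (GENCODE M21, GRCm38).
Selenok: atggctggtggaTGAgga

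All 5 genes rose with exosomes, by 2.00-fold to 2.50-fold in mean FPKM, and in each of them the lowest exosome library was above the highest control library. limma called 5 of 5 higher, against a background of 15.4% of the 680 genes called higher and 59.3% called in either direction. After centring each library on its median, which adds 0.15 to every log2 difference, 212 genes were called higher and 112 lower, in place of 105 and 298. The genes were selected as changed, so this median can itself shift between groups and is no neutral reference. Groups that did not overlap, with the exosome libraries higher, were found in 22.8% of all genes, and a rise of at least 2-fold in mean FPKM in 23.2%. The median log2 difference was 1.29 over the 5 genes, −0.13 over all 680 genes and −0.63 over the 138 genes that averaged 1 FPKM or more, where 34.8% were called higher.

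Creld2 was at 155, 114 and 254 FPKM in control libraries 1, 2 and 3 and at 443, 441 and 423 FPKM in exosome libraries 1, 2 and 3. The exosome libraries were thus nearly level, while the controls differed 2.23-fold between library 2 and library 3. The exosome mean was 3.82 times control library 2 but 1.72 times control library 3, and the lowest exosome library was 1.67 times the highest control. The log2(FPKM + 1) difference was 1.40 ± 0.29 (SE, n = 3 per group; 95% interval 0.65 to 2.15; limma adjusted p = 0.0178). It fell just short of the threshold of 0.05 when any 1 exosome library was dropped (limma adjusted p = 0.0512 to 0.0571).

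Manf was at 124, 87.4 and 162 FPKM among the controls and at 285, 314 and 291 FPKM in the exosome libraries. Library 2 was again the lowest control and library 3 the highest, but among the exosome libraries the second was now the highest. The log2 difference was 1.29 ± 0.23 (SE, n = 3 per group; limma adjusted p = 0.0129), and it passed whichever library was left out (highest limma adjusted p = 0.0479).

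Of the genes for BiP partners, Sdf2l1 was at 56.8, 46.2 and 91.9 FPKM among the controls and at 145, 161 and 180 FPKM in the exosome libraries. The groups were 1.57-fold apart at their nearest libraries. Its log2 difference was 1.36 ± 0.27 (SE, n = 3 per group; limma adjusted p = 0.0161), and leaving out exosome library 2 gave a limma adjusted p of 0.0525 and leaving out library 3 one of 0.0516, both above 0.05.

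Dnajc3 was at 48.7, 33.0 and 72.0 FPKM among the controls and at 113, 89.4 and 105 FPKM in the exosome libraries. Of the 5 genes it had the smallest gap between groups, with its lowest exosome library 1.24 times its highest control. The log2 difference of 1.05 ± 0.29 (SE, n = 3 per group; 95% interval 0.31 to 1.79; limma adjusted p = 0.0321) missed the threshold on leaving out control library 1 or any 1 of the exosome libraries (limma adjusted p = 0.0713 to 0.0874). The value itself was 0.78 without control library 2 and 1.33 without control library 3.

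Selenok was at 22.6, 17.2 and 23.9 FPKM among the controls and at 46.6, 43.5 and 41.0 FPKM in the exosome libraries. It had the lowest level of the 5 genes and the narrowest spread among controls, 1.39-fold. Its log2 difference of 1.02 ± 0.13 (SE, n = 3 per group; 95% interval 0.68 to 1.36) had the smallest adjusted p of the 5 (limma adjusted p = 0.00634). It passed whichever library was left out, with 0.0268 as the highest limma adjusted p.

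**Figure D1:**
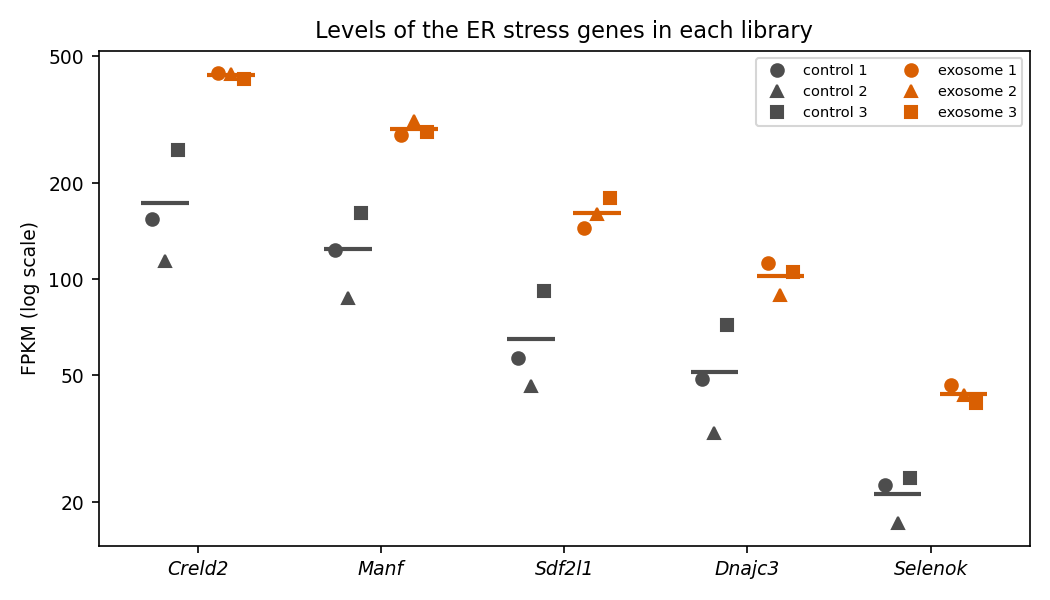
FPKM (log scale) of each gene in the 3 control (grey) and 3 exosome (orange) libraries, with 1 symbol shape per replicate number and a bar at each group mean. In each gene all exosome libraries lie above all control libraries, and the control libraries are spread more widely, with Creld2 at 114 to 254 against 423 to 443 FPKM.

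**Figure D2:**
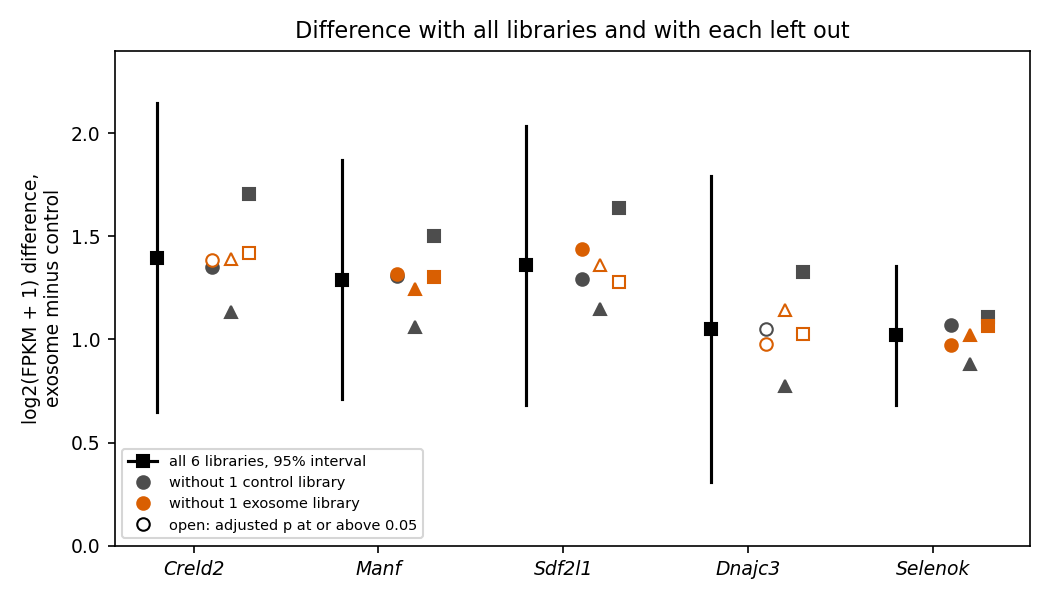
Difference in log2(FPKM + 1), exosome minus control, for each gene with all 6 libraries (black square with the 95% interval of limma) and with each library left out in turn (grey for control, orange for exosome, with 1 shape per replicate number). Open symbols, where the limma adjusted p was at or above 0.05, occur in Creld2, Sdf2l1 and Dnajc3 and not in Manf or Selenok.

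The reads behind these values were many. The lowest was Selenok in control library 2, with 1418 recovered reads, and the highest Manf in exosome library 2, with 60261. Counting error on 1418 reads is 2.66% of the value, or 3.76% if both mates of each pair were counted.

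The 5 genes varied together among the untreated libraries. Each was lowest in control library 2 and highest in control library 3, an order seen in 10.7% of all genes, in 17.4% of the 138 that averaged 1 FPKM or more and in 31.2% of the 48 such genes that limma called higher. The order was examined because earlier results had shown it for Creld2, Manf, Sdf2l1 and Dnajc3. Depth was lowest in control library 1 and highest in control library 3, and its part in this order was not tested. Relative to its own control mean, Creld2 stood at 65.5% in library 2 and 146% in library 3. Dnajc3 moved almost the same, from 64.4% to 141%, and Sdf2l1 from 71.1% to 141%. Manf went from 70.2% to 130% and Selenok from 81.1% to 113%, so Selenok followed the order with the smallest swing.

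Control spreads of this size were not peculiar to these genes. Of the 138 genes averaging 1 FPKM or more, 20 had a ratio of highest to lowest control library at least as large as that of Creld2, 23 as that of Dnajc3, 33 as that of Sdf2l1, 38 as that of Manf and 94 as that of Selenok. The coefficient of variation was larger among controls than among exosome libraries in 5 of 5 genes, against 58.0% of the 138 genes and 66.7% of the 48 called higher. For Creld2 it was 41.3% among controls and 2.47% among exosome libraries, and for Dnajc3 38.3% and 11.7%. With 3 libraries a group, these spreads are descriptions and were not tested.

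No shared order was seen among the exosome libraries. Creld2 and Selenok were lowest in exosome library 3. Selenok was highest in library 1, and Creld2 was nearly level in libraries 1 and 2, at 443 and 441 FPKM. Sdf2l1 ran the other way, from 145 in library 1 to 180 FPKM in library 3, while Manf was highest in library 2 and Dnajc3 lowest there. The sum over the 5 genes was nevertheless almost constant. It came to 2437, 2430 and 2422 RPM (reads per 1000000 reads of the library) in exosome libraries 1, 2 and 3, a 1.01-fold range, against 1003, 717 and 1435 RPM in the control libraries, a 2.00-fold range. Manf gave 43.0% of these reads and Creld2 24.5% in the exosome libraries, and 42.1% and 22.3% in the controls.

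**Figure D3:**
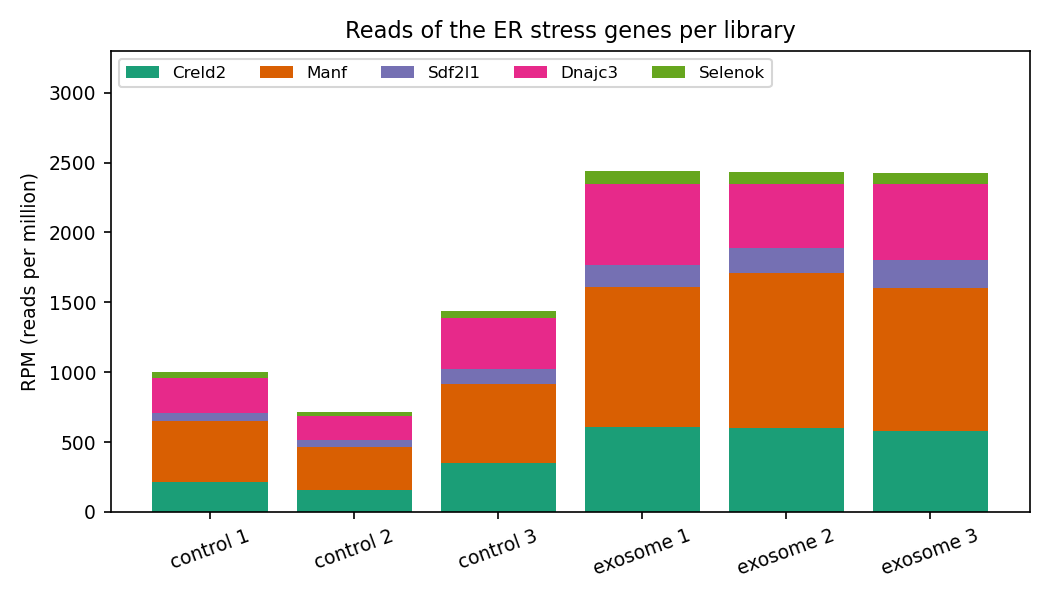
Recovered reads of the 5 genes, stacked, scaled to the reads of each library (RPM). The exosome bars end within 2422 to 2437 RPM while the control bars end at 1003, 717 and 1435. Mean parts in control and exosome bars were 42.1% and 43.0% for Manf and 22.3% and 24.5% for Creld2. They were 24.8% and 21.7% for Dnajc3, 6.84% and 7.39% for Sdf2l1 and 3.98% and 3.40% for Selenok.

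Ratios between the genes within a library show how closely they kept step. The level of Sdf2l1 relative to Creld2 was 0.367, 0.405 and 0.362 among the controls and 0.327, 0.364 and 0.426 in the exosome libraries. These ranges overlap, with means of 0.378 ± 0.0235 and 0.372 ± 0.0498 (SD, n = 3 per group). The level of Manf relative to Creld2 was 0.801, 0.766 and 0.638 in the controls and 0.643, 0.712 and 0.686 with exosomes, again overlapping. The level of Selenok relative to Creld2 was 0.146 and 0.151 in control libraries 1 and 2 but 0.0941 in control library 3. That last value was below the exosome ratios of 0.105, 0.0985 and 0.0969. The Manf ratio of control library 3, 0.638, was also below all exosome ratios of Manf. In the same library the Sdf2l1 ratio of 0.362 was among the exosome ratios and the Dnajc3 ratio of 0.283 above them. These are values of 1 library.

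The level of Dnajc3 relative to Creld2 had groups that did not overlap. It was 0.315, 0.289 and 0.283 among the controls and 0.255, 0.203 and 0.249 in the exosome libraries, beside folds in mean FPKM of 2.00 for Dnajc3 and 2.50 for Creld2. The difference in log2 ratio was −0.35 (two-sided exact permutation p = 0.10, adjusted p = 0.40 over 4 ratios), and 0.10 is the smallest p that 3 against 3 libraries allow. For Manf, Sdf2l1 and Selenok the differences in log2 ratio to Creld2 were −0.11, −0.04 and −0.38 (exact permutation p = 0.40, 0.90 and 0.40). None of the 4 ratios could have passed in this design, so a p that misses the threshold does not show that the genes rose by equal amounts.

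**Figure D4:**
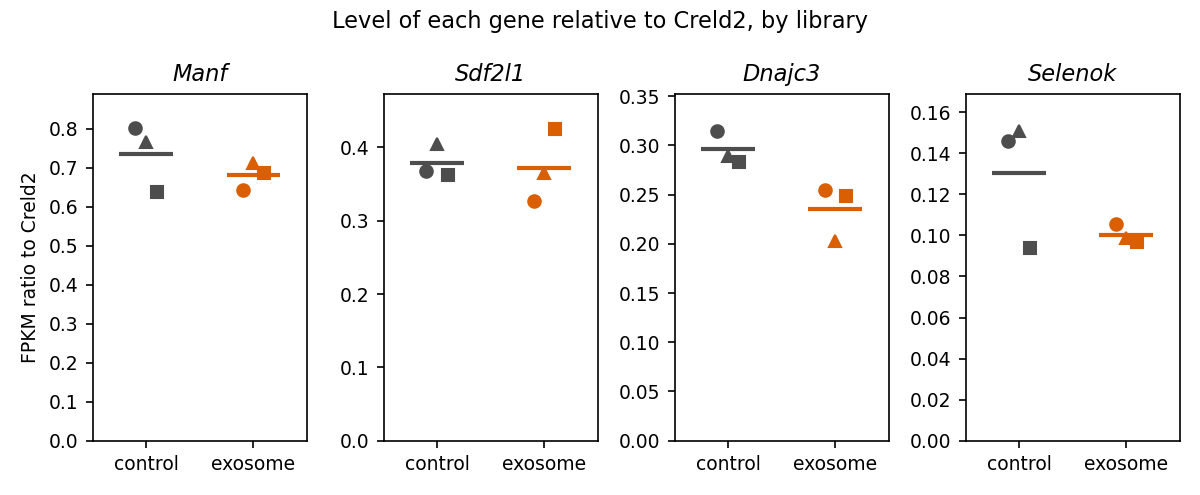
FPKM of Manf, Sdf2l1, Dnajc3 and Selenok divided by that of Creld2 in the same library, with bars at group means, 1 symbol shape per replicate number and each vertical axis starting at 0. Control and exosome libraries overlap for Manf, Sdf2l1 and Selenok, while Dnajc3 lies at 0.283 to 0.315 in control and 0.203 to 0.255 in exosome libraries.

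In FPKM, a level per length of exon, the order Creld2, Manf, Sdf2l1, Dnajc3, Selenok from high to low was the same in each of the 6 libraries. Control means were 174 ± 72.0 FPKM for Creld2 and 124 ± 37.3 for Manf (SD, n = 3), a step below the SD of Creld2 but above that of Manf. The step from Sdf2l1, at 65.0 ± 23.9, to Dnajc3, at 51.2 ± 19.6 (SD, n = 3), was smaller than either SD. The genes varied together among controls, so these SDs do not measure the steps within a library. In the exosome libraries the ranges of the 5 genes did not overlap. The place of Manf depends on the length used. The 7 transcripts annotated for Manf sum to 3524 bases of exon, and the transcript matched to RefSeq, Manf-202, has 2247. Divided by 2247, an alternative chosen after seeing the data, Manf was at 195 ± 58.5 in control and 465 ± 24.5 FPKM in exosome libraries (SD, n = 3), above Creld2 in all 6 libraries, though in control library 3 both were at 254. Creld2, Sdf2l1 and Dnajc3 have 1 annotated transcript each. For Selenok the sum of 1891 bases against 1678 changed no place in the order.

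Genes with the most similar profile were sought among 58 other named coding genes averaging 1 FPKM or more, by the root mean square distance to the mean profile of the 5 genes over the 6 libraries, on the log2(FPKM + 1) scale. The closest were Hmox1, the heme-degrading enzyme, at a distance of 0.15, the cytosolic chaperone gene Hsph1 at 0.23, Cdk2ap2 at 0.24, the heat shock gene Hspa1b at 0.26 and the cytochrome P450 gene Cyp2c23 at 0.28. The 5 genes themselves lay at 0.07 (Manf) to 0.19 (Selenok) from that mean, which they form. Between pairs of them the distance was lowest for Creld2 and Manf, at 0.12, and highest for Creld2 and Selenok, at 0.29. Hmox1 was at 329, 286 and 409 FPKM in the control and at 717, 794 and 898 FPKM in the exosome libraries, with the same order of control libraries. Cdk2ap2 was at 54.0, 50.1 and 63.1 against 95.5, 117 and 117 FPKM and Hsph1 at 20.1, 19.2 and 25.6 against 51.1, 36.7 and 45.0 FPKM, also lowest in control library 2 and highest in control library 3. Hspa1b, whose reads cannot be separated with certainty from its near-identical neighbour Hspa1a, was at 29.2, 37.2 and 53.9 FPKM in the controls, so its lowest was library 1. These profiles include the difference between groups that the authors selected genes for, so likeness is a description only.

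**Figure D5:**
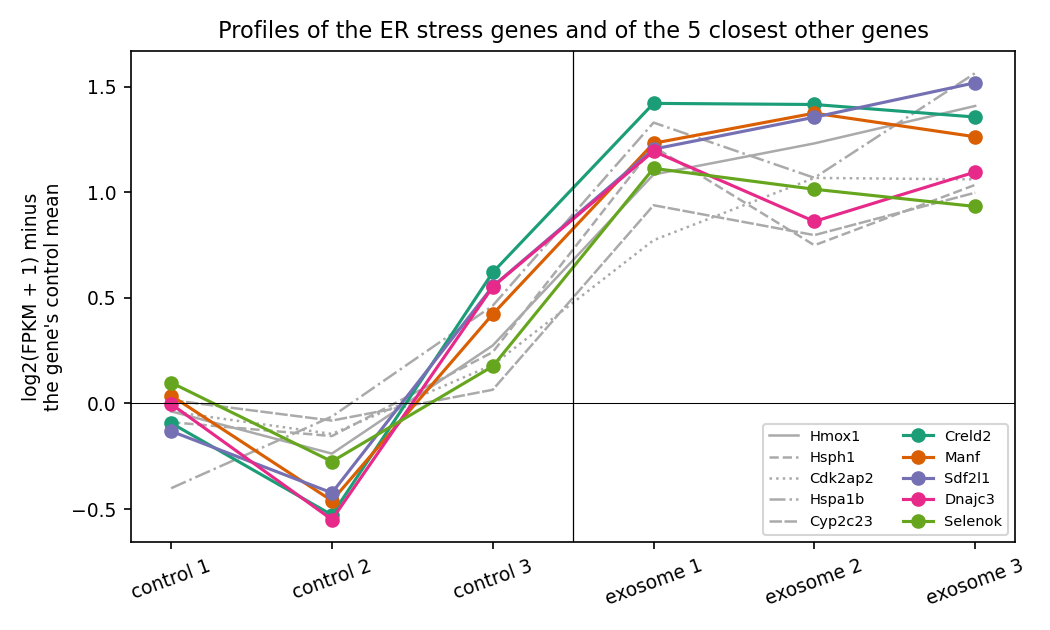
log2(FPKM + 1) minus the control mean of each gene, in the 6 libraries, for the 5 genes (coloured) and the 5 closest other genes (grey). Lines join the values of 1 gene and imply no order of libraries. The coloured lines all dip in control library 2, rise in control library 3 and cross each other in the exosome libraries.

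Other genes of ER stress were taken from 10 lists with 272 symbols for ER chaperones, disulfide isomerases, ER-associated degradation, sensors and transcription factors, PERK-ATF4 targets, transport and glycosylation, selenoproteins, cytosolic and mitochondrial chaperones and cell death. Of these symbols 10 were analysed, the 5 genes included, and the rest are not analysed here. The ER chaperone list had 4 of 28 symbols analysed, with a median log2 difference of 1.32. All 4 were members and were called higher, against 15.4% of all genes and 34.8% of those averaging 1 FPKM or more. This list thus adds no gene to the members. The degradation list had Selenok alone of 26. None of 22 sensors and transcription factors, 21 disulfide isomerases and 64 transport and glycosylation genes was among the genes analysed, so nothing can be said here of BiP, PERK, ATF4 or XBP1 RNA.

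In the PERK-ATF4 list 1 of 41 symbols was analysed, the amino acid transporter gene Slc7a3, against 43.8% of all genes called lower. Creld2, which the series title names after PERK and ATF4, was listed with the ER chaperones and not in this list. It was at 1.53, 1.50 and 1.93 FPKM in the control and at 0.730, 0.845 and 0.819 FPKM in the exosome libraries, a log2 difference of −0.56 ± 0.07 (SE, n = 3 per group; limma adjusted p = 0.00634). With less weight on the pseudocount the log2 difference was further from 0, −0.96 with 0.1, −1.03 with 0.01 and −1.04 by limma-voom. Slc7a3 thus fell while Creld2 rose, and 1 weakly expressed gene does not stand for the list. Its highest control was library 3, as for Creld2, but control libraries 1 and 2 were nearly level, on 229 and 247 reads, and cannot be ordered. Of 24 selenoprotein genes 2 were analysed and went opposite ways. Dio2, which activates thyroid hormone, fell from 0.122, 0.186 and 0.114 FPKM to 0.0528, 0.0253 and 0.0335 FPKM (limma adjusted p = 0.0260), with as few as 8 reads in a library. Its groups did not overlap and the exosome mean was 0.265 times the control mean. The log2 difference of a gene this weak depends on the pseudocount, and was −0.14 with 1, −0.80 with 0.1, −1.68 with 0.01 and −1.90 by limma-voom. The limma adjusted p was above 0.05 with the replicate block (0.0813) and without any 1 exosome library (0.0551 to 0.0786). The cytosolic heat shock list had 3 of 22 symbols analysed, Hspa1b, Hsph1 and Dnajb1, and all 3 rose, with a median log2 difference of 1.01, against 15.4% of all genes called higher and 34.8% of those averaging 1 FPKM or more. Dnajb1, a cytosolic partner of heat shock protein 70, was at 15.0, 19.5 and 18.2 against 35.3, 32.0 and 41.4 FPKM, with control library 2 as its highest control.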

How the data were processed

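The deposited values were FPKM, 1 column per library, made by the authors; per the name of the deposited file the genes are those they had called changed. Aligner, counter, build, caller and threshold are not given in the sources used here. Groups and replicate numbers came from the titles. Identifiers were matched to GENCODE M21 (GRCm38) for symbols, positions and exon lengths, and 672 of 680 were found. Depth and reads were recovered from FPKM times summed exon length, which came out whole (tolerance 0.02 reads) for 661 genes in each library. limma 3.58.1 (R 4.3.3) was fitted to log2(FPKM + 1) of all 680 genes, two-sided, with Benjamini-Hochberg adjustment over all of them and a threshold of 0.05. The fit was also run on simulated data with equal spread in every gene. These genes differ in spread and were selected, so that run does not bear on the calls made here. On this scale changes of weakly expressed genes are understated. Ratios were compared by exact permutation (scipy 1.17.1). The named genes are the 5 members, list genes in the table and the 5 closest profiles. The members and lists were chosen with earlier results of these data known. Motifs, the control order and transcript lengths were taken up after seeing the data.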

Additional observations from a re-analysis of the deposited data

How the results depend on the processing

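All 5 genes kept their direction in every fit run. The alternatives were pseudocounts of 0.1 and 0.01, a mean of at least 1 FPKM, median centring, a trended and robust prior, a replicate block, limma-voom on recovered reads and leaving out each library. Leaving out 1 library, with fewer samples, gave log2 differences of 1.13 to 1.71 for Creld2, 1.15 to 1.64 for Sdf2l1 and 0.78 to 1.33 for Dnajc3, where calls were lost as given above, and 1.06 to 1.50 for Manf and 0.88 to 1.11 for Selenok, where none was. The other settings changed no call of the 5 genes. With the replicate block the limma adjusted p was 0.0456, 0.0404, 0.0323, 0.0451 and 0.0301 for Creld2, Manf, Sdf2l1, Dnajc3 and Selenok. The deviations of same-numbered libraries correlated at −0.13, 0.08 and −0.22, and no control library correlated best with its own number. With 3 libraries a group this cannot decide whether same-numbered libraries were paired. The count of genes called was 403 of 680 (105 higher, 298 lower). It was 611 of 680 with a pseudocount of 0.01 and 201 of 680 with the replicate block. With the FPKM limit 131 of the 138 genes tested were called, and with limma-voom 635 of 672 (94.5%). A call was thus near the rule in these 2 settings. Without 1 library the count was 164 to 356 of 680. Median centring gave 212 higher and 112 lower, on a median of genes selected as changed. The log2 ratio of Sdf2l1 to Creld2 differed by −0.04, and by −0.14 to 0.05 without 1 library, and was 0.0142 without control library 2 and 0.0509 without exosome library 1; the cause was not tested. Dio2 was at −0.14, and at 0.010 with median centring, which adds 0.15 to a difference that the pseudocount of 1 had compressed. With a pseudocount of 0.1 it was −0.80, with 0.01 −1.68 and with limma-voom −1.90, at limma adjusted p of 0.0107, 0.0124 and 0.00584. The level of Manf over Creld2 was 0.735 in control and 0.680 in exosome libraries, and 1.15 and 1.07 with the length of the RefSeq-matched transcript.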
